A study of Bos grunniens x Bos taurus and Bos grunniens with 6 samples.

Results

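The genes that write, maintain or remove DNA methylation were examined in testis RNA-seq libraries of cattle-yak and yak, 10 genes selected by symbol from the 18918 genes of the expression table. They comprised the methyltransferase genes DNMT1, DNMT3A, DNMT3B and DNMT3L, the maintenance factors UHRF1 and UHRF2, and the demethylation genes TET1, TET2, TET3 and TDG. Each of the 10 symbols stood on 1 gene, so no member was divided over copies. The libraries came from 3 cattle-yak (TES5, TES6 and TES7), male F1 hybrids of a Jersey sire and a Gannan yak dam, and from 3 male Gannan yak (Yak8, Yak9 and Yak10), with 1 library per animal, and all animals were 4 years old. F1 males of this cross are sterile. The groups were kept in different counties, and cattle-yak testes were taken by castration whereas yak were euthanised first, so that genotype, place and mode of collection cannot be told apart.

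In mammals a methyl group on cytosine, mostly at CpG dinucleotides, is copied after replication by DNMT1, which UHRF1 guides to hemimethylated DNA. DNMT3A and DNMT3B methylate sites that carried no mark, with DNMT3L as a partner that has no catalytic activity of its own and is known from fetal prospermatogonia, where paternal imprints and transposons are methylated. The TET dioxygenases oxidise 5-methylcytosine, and TDG cuts out some of the oxidised bases, which base excision repair replaces with unmodified cytosine. Methylation itself was not measured here, and transcript levels of these enzymes do not give the amount of the mark.

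The values are fragments per kilobase of gene model, normalised to the sequencing depth of each library (FPKM), which allow levels of different genes to be set side by side. They rested on 11132462 to 11790646 fragments recovered on genes in the cattle-yak libraries and on 12935032 to 13079661 in the yak libraries. The groups were compared by limma for the 15042 genes that averaged at least 0.5 FPKM over the 6 animals. The difference between the group means of log2 (FPKM + 1), cattle-yak minus yak, is given as log2FC, and genes were called at an adjusted p (Benjamini-Hochberg) under 0.05 with a log2FC beyond 1 or −1. Because of the added 1 FPKM, log2FC is smaller than the log2 ratio of the FPKM values where levels are low. Libraries were not scaled against each other, and the median log2FC of all tested genes was 0.51, so values near 0.51 lay at the middle of the distribution.

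The tissue labels were checked with cell type markers. Summed over the markers of elongating spermatids, which include transition protein and protamine genes, cattle-yak had 18.3 to 85.9 FPKM and yak 9060 to 11020 FPKM. Round spermatid markers summed to 3.05 to 14.6 FPKM in cattle-yak and 592.8 to 707.8 FPKM in yak. Spermatocyte markers summed to 222.3 to 402.0 and 447.1 to 471.5 FPKM, with 1 of 9 called higher (SYCP3, 1.10), 1 lower (PIWIL1, −3.32) and 7 neither. Without PIWIL1, left out after its values were seen, the spermatocyte sums were 207.7 to 376.5 FPKM in the hybrids and 286.1 to 336.7 FPKM in yak, which overlap. Sertoli cell markers summed to 2638 to 2812 FPKM in cattle-yak against 559.5 to 624.5 FPKM in yak, and spermatogonial markers to 795.2 to 1000 against 193.2 to 262.1 FPKM. The cell composition thus moved together with the groups, and its part in the differences below was not tested. From bulk RNA alone, fewer cells of a type cannot be told apart from less RNA per cell. In its histology the study saw neither round spermatids nor sperm in cattle-yak tubules. It also reported fewer spermatogonia, primary spermatocytes and secondary spermatocytes there than in yak.

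TDG, TET2 and TET3 were called higher in cattle-yak, which is 3 of the 9 members tested and 3 of the 4 erasers. Of all tested genes, 33.4% were called higher. The yak means of TET1, TET2 and TET3 (0.212, 0.428 and 0.466 FPKM) lay under the minimum of 0.5 FPKM. The TET genes thus entered the test only through their cattle-yak values. None of the 9 was called lower, against 20.8% of all tested genes. With FPKM as deposited, all 9 passed the adjusted p of 0.05 without regard to the size of the change. Of these, 8 were higher and DNMT3B was lower in cattle-yak, and 81.9% of all tested genes passed in either direction. In each of the 9 the ranges of the groups did not overlap, as was so for 84.1% of the tested genes. The median log2FC of the tested members was 0.46. With median-of-ratios scaling, given below, the sign of DNMT1, DNMT3A, UHRF1 and UHRF2 turned. DNMT3L was the member that did not reach the minimum for the test.

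**Figure D1:**
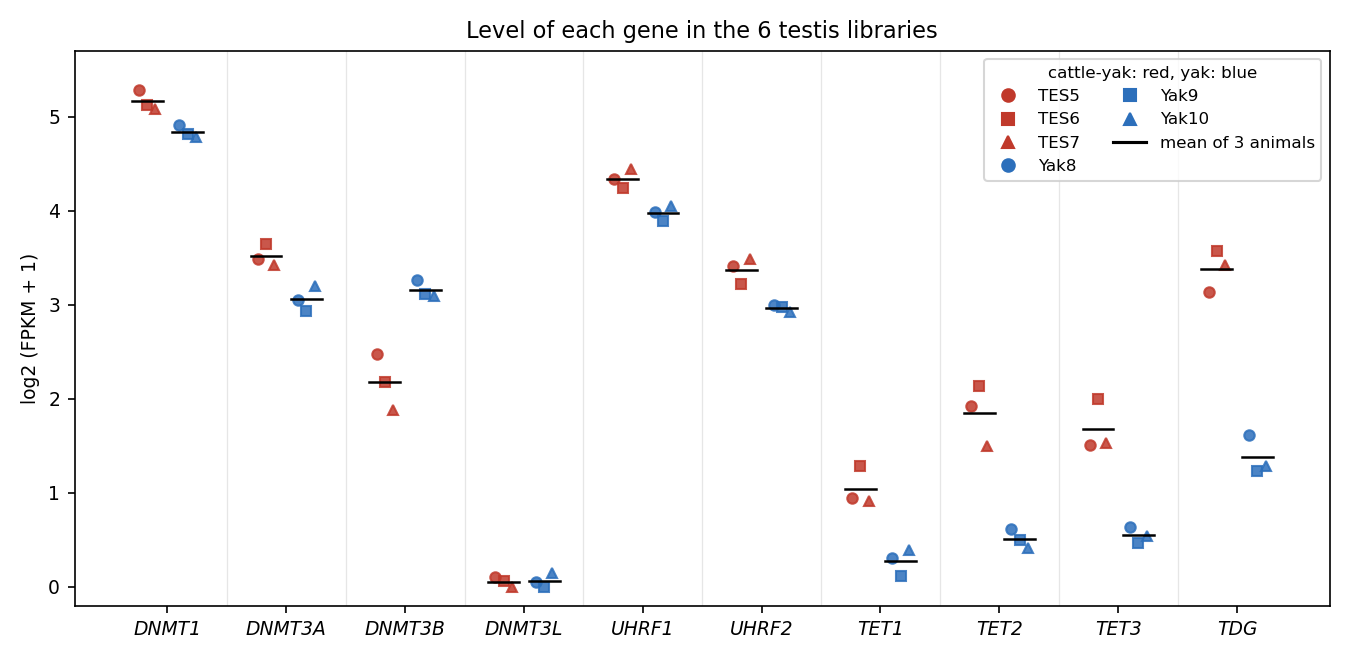
Level of each of the 10 genes on the log2 (FPKM + 1) scale (vertical axis) in the 3 cattle-yak (red) and 3 yak (blue) libraries, with black bars for the mean of each group. DNMT3B is the gene whose yak points lie above the cattle-yak points without overlap, the TET genes and TDG show the widest gaps in the other direction, and DNMT3L lies close to 0 in every library.

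DNMT1 (ENSBGRG00000002388), the maintenance methyltransferase, was the most abundant of the 10 genes in every library. It had 38.0, 33.8 and 32.8 FPKM in TES5, TES6 and TES7, and 29.1, 27.1 and 26.6 FPKM in Yak8, Yak9 and Yak10. The groups did not overlap, but the lowest cattle-yak value was close to the highest yak value. The means were 34.9 ± 2.73 and 27.6 ± 1.34 FPKM (SD, n = 3), a 1.26-fold difference, with log2FC = 0.32 (SE 0.10, limma adjusted p = 0.0176). Of all tested genes 45.0% had a lower log2FC than DNMT1, and with median-of-ratios scaling the sign turned, to −0.28 (limma adjusted p = 0.0416).

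UHRF1 (ENSBGRG00000013371), which binds hemimethylated DNA and recruits DNMT1, was the next most abundant member in both groups. Its level was 19.2, 17.9 and 20.8 FPKM in TES5, TES6 and TES7 and 14.8, 13.8 and 15.6 FPKM in Yak8, Yak9 and Yak10. The log2FC was 0.37 (SE 0.11, limma adjusted p = 0.0152), and −0.22 with median-of-ratios scaling (limma adjusted p = 0.107). UHRF2 (ENSBGRG00000006794), its paralog, had 9.65, 8.29 and 10.2 FPKM in the same order of cattle-yak animals and 6.96, 6.89 and 6.58 FPKM in yak. The yak values of UHRF2 lay within a narrow range, with a coefficient of variation of 2.98%. Its log2FC was 0.41 (limma adjusted p = 0.0181) and −0.15 with median-of-ratios scaling (limma adjusted p = 0.331).

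The proportions among the maintenance genes overlapped between the groups. Within a library UHRF1 stood at 0.507, 0.528 and 0.633 of the level of DNMT1 in TES5, TES6 and TES7, and at 0.508, 0.508 and 0.586 in Yak8, Yak9 and Yak10. Scaling between libraries cancels in such a ratio. The log2 ratios differed by 0.06 between the groups, less than the spread between animals (SD 0.17 and 0.12, n = 3, exact permutation test, two-sided, p = 0.7). UHRF1 made up 66.6% to 68.3% of the UHRF sum in cattle-yak and 66.7% to 70.3% in yak. A difference smaller than the spread between 3 animals would not be seen here.

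DNMT3A (ENSBGRG00000015176) and DNMT3B (ENSBGRG00000004279), the de novo methyltransferases, differed in opposite directions on the FPKM scale. DNMT3A had 10.2, 11.5 and 9.70 FPKM in TES5, TES6 and TES7 and 7.30, 6.62 and 8.21 FPKM in Yak8, Yak9 and Yak10. Its log2FC was 0.46 (SE 0.13, limma adjusted p = 0.0129), or −0.06 relative to the median of all tested genes. With median-of-ratios scaling it was −0.10 (limma adjusted p = 0.491). DNMT3B had 4.56, 3.52 and 2.69 FPKM in the cattle-yak animals and 8.61, 7.67 and 7.53 FPKM in the yak animals. The lowest yak value of DNMT3B was well above the highest cattle-yak value. The means of 3.59 ± 0.94 and 7.94 ± 0.59 FPKM (SD, n = 3) gave a 2.21-fold higher level in yak.

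The log2FC of DNMT3B was −0.98 (SE 0.18, limma adjusted p = 9.3e-04), just short of the threshold of 1. It passed the threshold without TES5 (−1.13), without Yak9 (−1.001) and without Yak10 (−1.01), with a pseudocount of 0.1 (−1.15), with median-of-ratios scaling (−1.49) and when recovered fragments were analysed with voom (−1.17). Only 21.1% of the tested genes had a lower log2FC. DNMT3B was lower in cattle-yak under every setting tried. Among the cattle-yak animals DNMT3B was highest in TES5 and lowest in TES7, as were the summed elongating spermatid markers (85.9, 34.1 and 18.3 FPKM) and round spermatid markers (14.6, 6.69 and 3.05 FPKM). The spermatocyte markers were lowest in TES6 instead (402.0, 222.3 and 371.8 FPKM). With 3 animals this is a description, and its part in the difference was not tested.

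The balance of the de novo enzymes therefore differed within each library. The ratio of DNMT3A to DNMT3B was 2.23, 3.27 and 3.61 in TES5, TES6 and TES7, and 0.848, 0.863 and 1.09 in Yak8, Yak9 and Yak10. DNMT3A exceeded DNMT3B in every cattle-yak library, whereas the levels were close to each other in yak. The ratio was 3.21-fold higher in cattle-yak, with a log2 difference of 1.68 and SDs of 0.37 and 0.20 (n = 3). The exact permutation test (two-sided) gave p = 0.1, the smallest that 3 animals against 3 can reach, and 0.4 after adjustment over the 8 ratios computed. The ratio of DNMT1 to DNMT3A, by contrast, overlapped between the groups, with 2.93 to 3.73 in the hybrids and 3.24 to 4.10 in yak (exact permutation test, two-sided, p = 0.3).

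Summed over DNMT1, DNMT3A and DNMT3B, the catalytic methyltransferases reached 45.2 to 52.7 FPKM in cattle-yak and 41.4 to 45.1 FPKM in yak. DNMT3B supplied 8.64%, 7.21% and 5.94% of this sum in TES5, TES6 and TES7 and 19.1%, 18.5% and 17.8% in Yak8, Yak9 and Yak10. DNMT1 supplied 69.2% to 72.6% in the cattle-yak libraries against 62.8% to 65.5% in the yak libraries, without overlap. DNMT3A held 21.5% ± 2.1 and 17.2% ± 1.9 of the cattle-yak and yak sums (SD, n = 3), and here the lowest cattle-yak value, 19.3%, lay just under the highest yak value, 19.4%.

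DNMT3L (ENSBGRG00000022411), the cofactor of the de novo enzymes, was close to undetected in these mature testes. It had 2, 1 and 0 fragments in TES5, TES6 and TES7 and 1, 0 and 3 fragments in Yak8, Yak9 and Yak10. These correspond to 0.0791, 0.0419 and 0 FPKM in cattle-yak and 0.0356, 0 and 0.108 FPKM in yak. The fragments overlapped between the groups. In TES7 and Yak9, where it was listed at 0, a count of 3 fragments, taken as the limit that a count of 0 allows, would be 0.121 and 0.107 FPKM, with counting error alone considered. No difference was detectable at this depth, and no fold change is given.

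**Figure D2:**
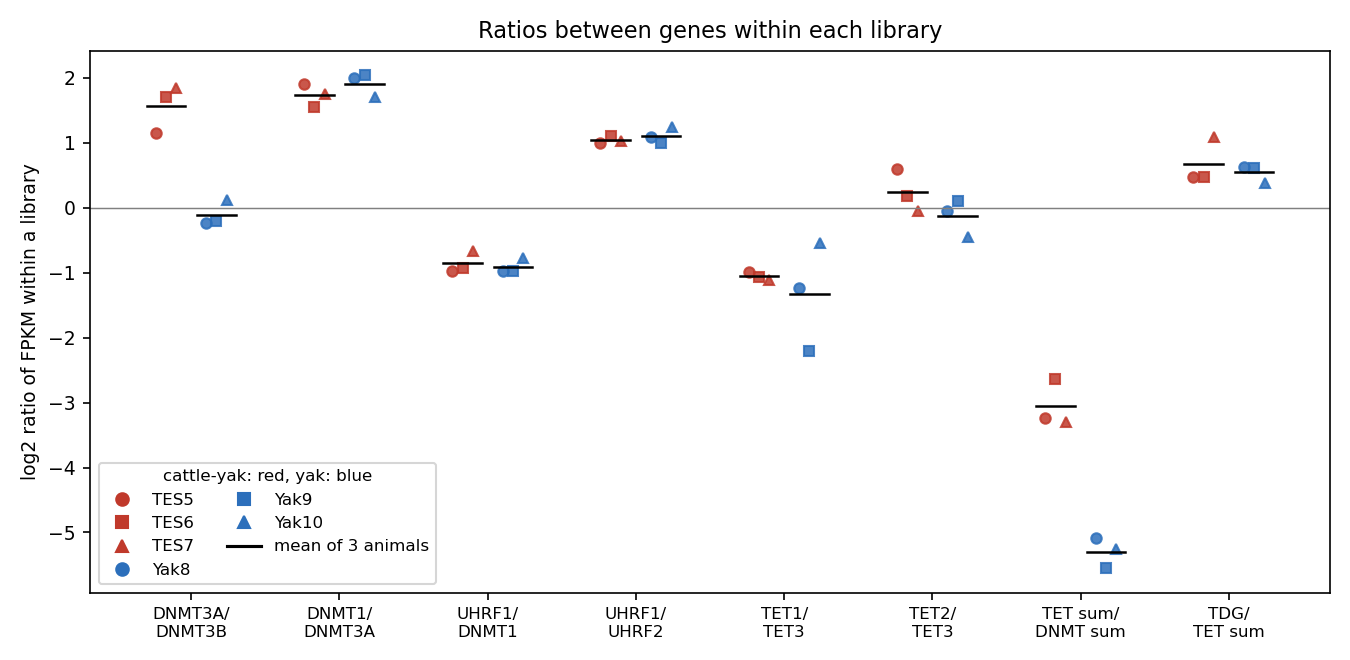
Log2 ratio of the FPKM of 2 genes, or of summed genes, within each library (vertical axis) for the 8 ratios computed, with cattle-yak in red, yak in blue and black bars for group means. The groups separate for DNMT3A over DNMT3B and for the TET sum over the DNMT sum, and overlap for the other ratios.

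TDG (ENSBGRG00000019887), a glycosylase that excises some oxidised forms of methylcytosine, rose more than any other member on the log2 (FPKM + 1) scale. It had 7.75, 10.9 and 9.75 FPKM in TES5, TES6 and TES7 and 2.05, 1.36 and 1.44 FPKM in Yak8, Yak9 and Yak10. All cattle-yak values were several times the highest yak value. The group means of 9.45 ± 1.57 and 1.62 ± 0.38 FPKM (SD, n = 3) differed 5.84-fold, with log2FC = 1.996 (SE 0.18, limma adjusted p = 1.4e-05). Of all tested genes 92.2% had a lower log2FC. The call held with median-of-ratios scaling (1.52) and without each animal in turn (1.90 to 2.12), but when libraries were centred on the Sertoli markers TDG stood at 0.01 (limma adjusted p = 0.953).

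TET2 (ENSBGRG00000004264) had 2.80, 3.40 and 1.82 FPKM in TES5, TES6 and TES7, from 61, 70 and 39 fragments. In Yak8, Yak9 and Yak10 it had 0.537, 0.414 and 0.334 FPKM, from 13, 10 and 8 fragments. The lowest cattle-yak animal was more than 3 times the highest yak animal. The ratio of the means was 6.24, the largest of the 10 genes, and the log2FC was 1.34 (SE 0.20, limma adjusted p = 2.7e-04). The gene model of TET2 spanned 1844 bases, against 6393 for TET1 and 5743 for TET3, so its FPKM rested on few fragments for its level. Summed over the cattle-yak animals TET2 had 170 fragments, TET1 237 and TET3 443. Whether the model covers the whole gene was not tested. The level of TET2 beside TET1 and TET3 depends on this length, whereas its fold change between the groups does not.

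TET3 (ENSBGRG00000010501) had 1.84, 2.99 and 1.89 FPKM in the cattle-yak animals and 0.557, 0.385 and 0.456 FPKM in the yak animals, in the same order. The means differed 4.81-fold and the log2FC was 1.13 (SE 0.18, limma adjusted p = 4.9e-04). Without TES6, its highest animal, the value was 0.97 and no longer past 1, and with median-of-ratios scaling it was 0.82. TET1 (ENSBGRG00000009961), the least abundant of the family by FPKM, had 0.925, 1.43 and 0.877 FPKM in cattle-yak and 0.238, 0.0836 and 0.313 FPKM in yak. Yak9 carried 7 fragments of TET1, with a 95% Poisson interval (exact, counting error only) of 0.0336 to 0.172 FPKM. The log2FC of TET1 was 0.77 (limma adjusted p = 3.3e-03), under the threshold, although its means differed 5.09-fold. The pseudocount of 1 FPKM exceeded every yak value of the family. On recovered fragments, voom adds a much smaller constant, to the fragment count. The log2FC was then 2.46 for TET1, 2.56 for TET2 and 2.22 for TET3, and all 3 were called.

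Among the cattle-yak animals, TES6 had the highest value of TET1, TET2, TET3, TDG and DNMT3A, and the lowest of UHRF1 and UHRF2. The TET sum was 5.56, 7.82 and 4.59 FPKM in TES5, TES6 and TES7 and 1.33, 0.883 and 1.10 FPKM in Yak8, Yak9 and Yak10. Relative to the catalytic DNMT sum of the same library, the TET sum was 0.105, 0.160 and 0.102 in the cattle-yak libraries and 0.0296, 0.0213 and 0.0260 in the yak libraries. This quotient was 4.71-fold higher in cattle-yak, with a log2 difference of 2.24 (SD 0.36 and 0.24, n = 3, exact permutation test, two-sided, p = 0.1, adjusted p = 0.4 over the 8 ratios). No library of either group overlapped with the other.

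Within the TET family, TET2 held 39.7% to 50.3% of the TET sum in cattle-yak and 30.3% to 46.9% in yak, and TET1 held 16.6% to 19.1% and 9.47% to 28.4%, with overlap in both cases. TET3 held 33.1% to 41.2% and 41.3% to 43.7%, ranges that almost touched. The wide range of TET1 in yak rested on 7 to 26 fragments. All these shares depend on the short gene model of TET2. The ratio of TDG to the TET sum was 1.39, 1.39 and 2.12 in TES5, TES6 and TES7 and 1.54, 1.54 and 1.31 in Yak8, Yak9 and Yak10 (exact permutation test, two-sided, p = 0.8). The log2 difference of 0.14 was smaller than the SD between cattle-yak animals, 0.35.

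Ordered by mean FPKM, the genes in yak ran from DNMT1 and UHRF1 to DNMT3B (7.94), DNMT3A (7.37), UHRF2 (6.81), TDG (1.62), TET3 (0.466), TET2 (0.428), TET1 (0.212) and DNMT3L. In cattle-yak TDG, with 9.45 FPKM, stood beside DNMT3A (10.5) and UHRF2 (9.37), and DNMT3B (3.59) came after them, followed by TET2 (2.67), TET3 (2.24), TET1 (1.08) and DNMT3L. The animals' values overlapped for DNMT3B and DNMT3A, for DNMT3A and UHRF2, and for TET3 and TET2 in yak. In cattle-yak they overlapped among DNMT3A, TDG and UHRF2, for DNMT3B and TET2 and for TET2 and TET3, so these neighbours are not ordered beyond their spread. Against all genes of the table, TDG exceeded 34.2% of the genes in yak and 55.3% in cattle-yak, whereas DNMT3B exceeded 56.6% in yak and 41.8% in cattle-yak. DNMT1 kept its place, above 78.0% of the genes in yak and 81.3% in cattle-yak.

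**Figure D3:**
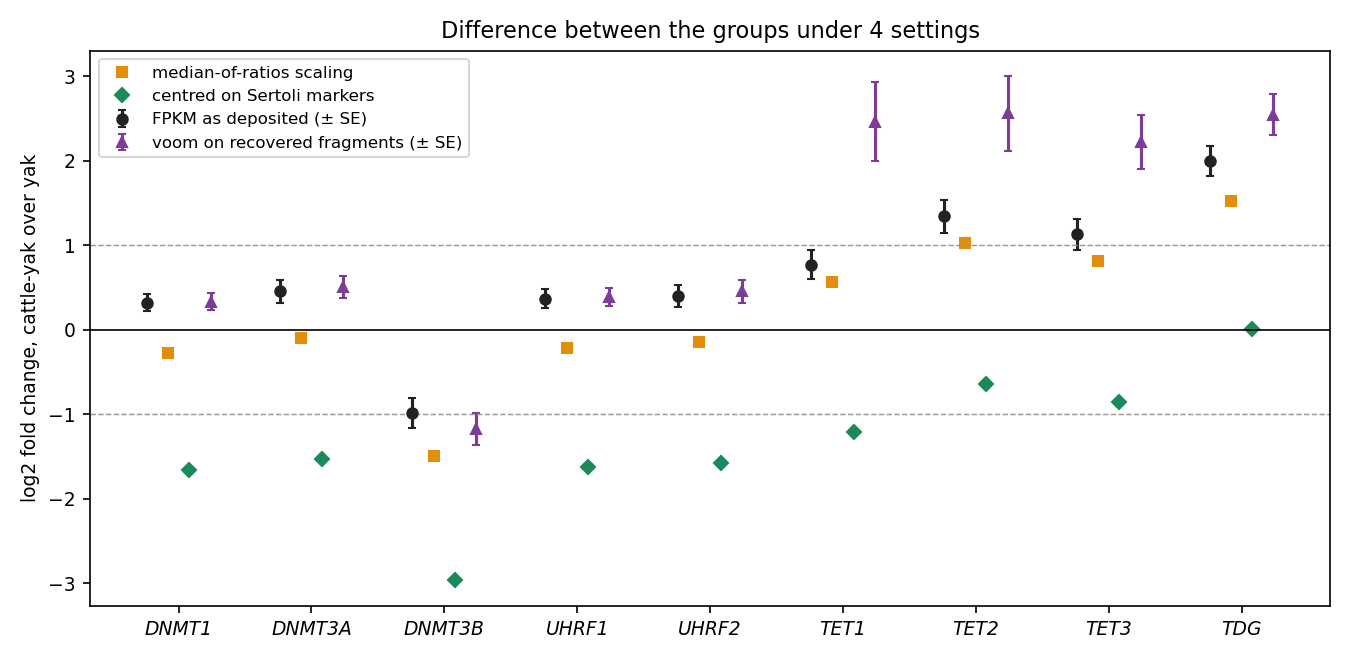
Log2 fold change of cattle-yak over yak (vertical axis) for the 9 tested genes under FPKM as deposited, median-of-ratios scaling, centring on the Sertoli markers and voom on recovered fragments, with standard errors for the first and the last and dashed lines at the thresholds of 1 and −1. DNMT3B lies below 0 under all 4 settings, DNMT1, DNMT3A, UHRF1 and UHRF2 change sign with median-of-ratios scaling, and the TET genes as well after centring on the Sertoli markers.

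The direction of several members depended on how libraries were set against each other. Median-of-ratios scaling moved the median log2FC of all tested genes to 0.01 and the calls among all genes from 5023 higher and 3136 lower to 2655 higher and 4173 lower. Under it TDG (1.52) and TET2 (1.02) were called higher and DNMT3B (−1.49) lower. The study, which tested read counts at the same thresholds, called more genes lower than higher in cattle-yak. Centring each library on the Sertoli marker genes moved the median to −1.47, and 6 members were then called lower and none higher. Relative to the median of all tested genes with the FPKM as deposited, TDG lay at 1.48, TET2 at 0.83, TET3 at 0.62 and TET1 at 0.26, while DNMT3A, UHRF2, UHRF1, DNMT1 and DNMT3B lay at −0.06, −0.11, −0.15, −0.19 and −1.49.

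The GO annotation deposited with the table placed the members only in part as their names imply. DNA demethylation was attached to TET1, TET2 and TET3 but not to TDG. DNA methylation was attached to DNMT3A, DNMT3B and DNMT3L but not to DNMT1. DNMT1, DNMT3A and DNMT3B were the 3 genes with DNA (cytosine-5-)-methyltransferase activity, and TET1, TET2 and TET3 were 3 of the 4 genes with methylcytosine dioxygenase activity. Maintenance of DNA methylation was attached to 5 genes, of which DNMT1, DNMT3A, UHRF1 and UHRF2 were members. Of the 10 genes, DNMT3A and DNMT3L were the ones annotated to spermatogenesis, among 309 genes with that term.

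Genes that work with the writers and erasers were read from 6 lists, in each case against 33.4% of all tested genes called higher and 20.8% called lower. The list of methyl-CpG readers, which took in genes of the MBD family by name, was divided. It had 2 of 9 tested genes higher and 2 lower and a list median log2FC of −0.17. Whether each listed protein binds methylated CpG was not examined. ZBTB38, a zinc finger reader, averaged 31.7 ± 1.32 FPKM in the hybrids and 5.24 ± 0.71 FPKM in yak (SD, n = 3), log2FC = 2.40. MBD1 fell to 37.8 ± 6.35 from 115.6 ± 10.4 FPKM (SD, n = 3), and MBD3, a subunit of the NuRD complex, had −1.35. MBD1 and MBD3 were also called lower with median-of-ratios scaling and after centring on the Sertoli markers. After centring, 7 of the 9 listed genes were lower and none higher.

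Among 15 tested partners in maintenance and targeting, 8 were called higher and 2 lower, with a median of 1.06. CDCA7L had the largest value, 2.17, followed by NSD1, a histone H3K36 methyltransferase, with 2.05 and KDM1B, an H3K4 demethylase, with 1.95. HELLS, the remodeller that works with CDCA7 in methylating heterochromatin, averaged 27.7 ± 3.99 FPKM in the hybrids and 8.06 ± 1.27 FPKM in yak (SD, n = 3), log2FC = 1.67. The genes called lower were TRIM28, a corepressor at imprinted loci and transposons, with 135.1 ± 12.0 against 467.6 ± 28.1 FPKM (SD, n = 3), and NSD2, with a log2FC of −1.65. PCNA and the more abundant of 2 genes named USP7, which act with DNMT1 and UHRF1, both had −0.11 and were not called. After median-of-ratios scaling 5 of these genes were higher and 2 lower, and after centring on the Sertoli markers 0 and 7.

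Of 15 tested partners of demethylation and base excision repair, 10 were called higher and 2 lower, with a median of 1.48. GADD45A, an adaptor named in active demethylation, averaged 61.7 ± 2.27 FPKM in the hybrids and 12.0 ± 1.38 FPKM in yak (SD, n = 3), log2FC = 2.28. POLB, the polymerase that fills the gap after excision, had 66.2 ± 6.04 FPKM in cattle-yak against 310.7 ± 14.7 in yak (SD, n = 3), a fall of 2.22 on the log2 scale (limma adjusted p = 4.6e-07). LIG3, the ligase of that step, fell by 1.77, and XRCC1, its scaffold partner, had −0.97 and was not called. OGT, which binds the TET proteins, had 2.07, and IDH1 and IDH2, which make the 2-oxoglutarate that TET enzymes consume, had 1.96 and 1.995. With median-of-ratios scaling 7 of the list were higher and 4 lower, and after centring on the Sertoli markers none was higher and 5 were lower.

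The cycle that supplies the methyl donor S-adenosylmethionine had 8 of 16 tested genes higher and 1 lower, with a median of 0.98. SHMT1 and MTHFD1, enzymes of folate metabolism, had log2FC values of 2.15 and 1.94. MAT2A, which makes S-adenosylmethionine, averaged 211.9 ± 23.0 FPKM in the hybrids and 54.9 ± 5.16 FPKM in yak (SD, n = 3), log2FC = 1.93. BHMT, which remethylates homocysteine with betaine, averaged 1.51 ± 1.27 FPKM in cattle-yak and 31.3 ± 9.92 FPKM in yak (SD, n = 3), log2FC = −3.77 (limma adjusted p = 2.4e-05). The counts were 6 higher and 2 lower with median-of-ratios scaling, and 0 and 8 after centring on the Sertoli markers.

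Of the factors for piRNA-guided methylation 4 were tested, and SPOCD1 was called higher at 1.19 and TEX15 lower at −1.09, with a list median of 0.60. Without TES6 TEX15 stood at −0.92 and was not called. With median-of-ratios scaling 0 were higher and 1 lower, and after centring on the Sertoli markers 0 and 3. PIWIL4, the nuclear PIWI protein of fetal germ cells, had means of 1.64 and 1.08 FPKM in cattle-yak and yak and was not called (limma adjusted p = 0.12). For DNA replication and division, the setting in which DNMT1 and UHRF1 act, 4 of 10 tested genes were called higher (MCM3, CDC6, MCM2 and MCM6, at 1.43, 1.29, 1.25 and 1.24) and none lower, with a median of 0.96. The other 6 genes of that list lay between 0.28 (TOP2A) and 0.996 (RRM1). None of the 10 was called with median-of-ratios scaling, and 5 were called lower after centring on the Sertoli markers.

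**Figure D4:**
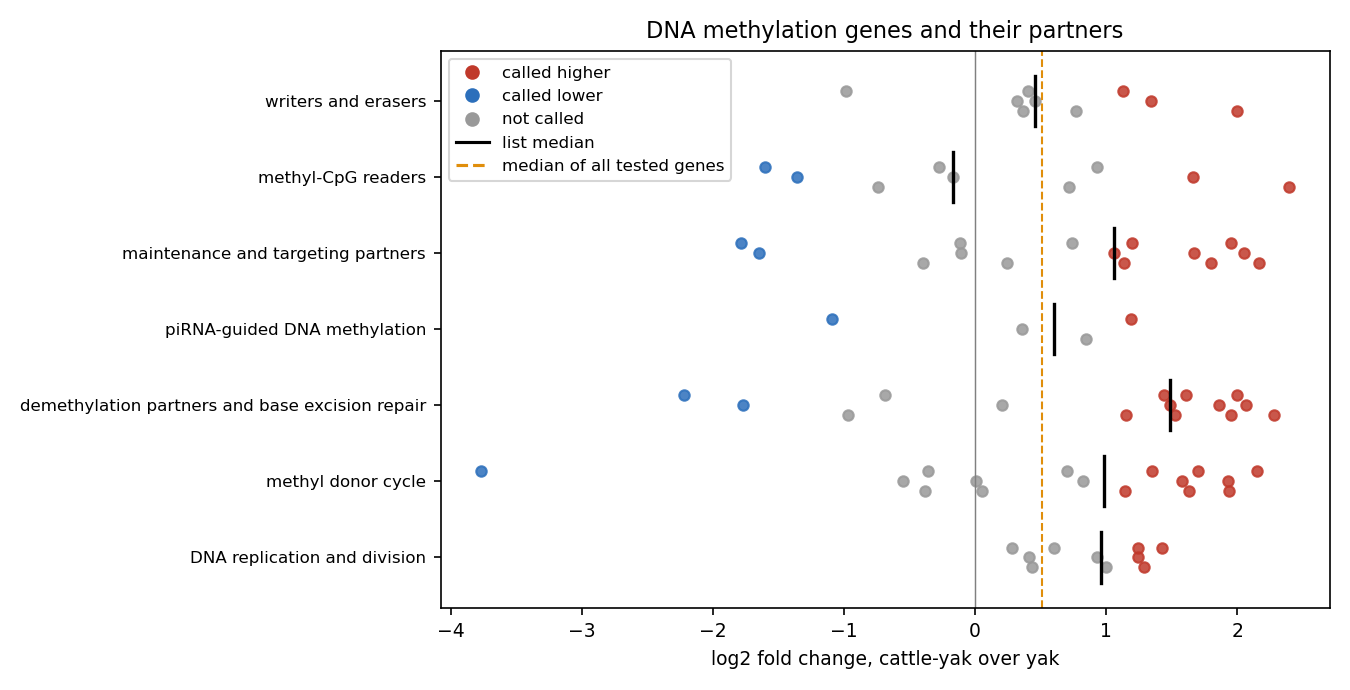
Log2 fold change of cattle-yak over yak (horizontal axis) of every tested gene of the writers and erasers and of 6 lists of partners, with red for genes called higher, blue for genes called lower, grey for genes not called, black bars for list medians and a dashed line for the median of all tested genes (0.51). The demethylation and repair partners have the highest median, 1.48, and the methyl-CpG readers the lowest, −0.17.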

How the data were processed

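Testis RNA of 6 animals was sequenced as stranded mRNA libraries with paired-end reads. According to the methods of the study, the authors trimmed reads with Trimmomatic, aligned those of both groups with HISAT2 to 1 yak assembly, and computed FPKM with Cufflinks and counts with HTSeq. The deposited values are FPKM, 1 per gene and animal, without scaling between libraries. Tool versions and the strand setting of counting are not given in the sources used here. Reads of the hybrid were thus aligned to 1 parental genome.

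The members and gene lists were chosen with earlier results of these data known. All members are reported. Of each list of partners the counts are given, with the 3 called genes of largest change, genes called against the majority. HELLS, MBD3, PCNA, USP7, XRCC1, IDH1, IDH2, MAT2A, PIWIL4, MCM6, TOP2A and RRM1 were named in addition, after their values were seen. One gene that this rule names is not reported here. Where a symbol stood on several genes the most abundant was used. Centring on the Sertoli markers was the exception, since it used all 13 tested genes with those symbols, including each copy of CLU and CTSL.

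Whole fragments and gene lengths were recovered from the FPKM steps for 17973 of 17973 genes with at least 2 values above 0, within 0.02 fragments of a whole number. Genes with a mean of at least 0.5 FPKM (15042) were fitted by limma 3.58.1 under R 4.3.3 after a log2 (FPKM + 1) transformation (eBayes with a variance trend, two-sided, Benjamini-Hochberg). Ratios within a library were compared by exact permutation over animals in scipy 1.17.1. Plots were made in matplotlib 3.10.9. One of the 9 ratios planned, DNMT3A to DNMT3L, was left out because DNMT3L was at 0 in some libraries. The fit and the recovery were tested on simulated data. Alternatives were pseudocounts, minimum FPKM, scalings, limma without a trend, voom on fragments, no fold threshold, and omission of each animal.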

Additional observations from a re-analysis of the deposited data

How the results depend on the processing

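With FPKM as deposited 3 members were called higher and 0 lower. The number lower became 1 (DNMT3B) with a pseudocount of 0.1, median-of-ratios scaling, TPM scaling or voom on recovered fragments. The cause of the call of DNMT3B under these settings was not tested. The number higher became 4 with a pseudocount of 0.1, TPM scaling or voom, where TET1 was also called (1.97, 1.06 and 2.46). It became 2 with median-of-ratios scaling. With a minimum of 5 FPKM it became 1, because the TET genes were then not tested. Without a fold threshold 8 members were higher and 1 lower, and 7916 of all genes were higher. With each animal left out, 2 to 3 members were higher and 0 to 1 lower. Median-of-ratios scaling left 2655 genes higher and turned DNMT1 (−0.28), DNMT3A (−0.10), UHRF1 (−0.22) and UHRF2 (−0.15). Centring on the Sertoli markers gave 64 genes higher and 9921 lower, with 0 members higher and 6 lower, and turned DNMT1 (−1.66), DNMT3A (−1.53), UHRF1 (−1.62), UHRF2 (−1.58), TET1 (−1.21), TET2 (−0.64) and TET3 (−0.86). Centring shifts the log2 values of all genes of a library together, by construction. Median-of-ratios scaling was applied before 1 FPKM was added, so genes at low levels moved less. TET1 went from 0.77 to 0.56 with it, and DNMT1 from 0.32 to −0.28. Adding 1 FPKM to both genes of a ratio moved the log2 difference of TET1 over TET3 from 0.27 to −0.36 and that of the TET sum over the DNMT sum from 2.24 to 1.53. With each animal left out, the log2 difference was 1.54 to 1.89 for DNMT3A over DNMT3B and 2.03 to 2.35 for the TET sum over the DNMT sum. Over the 9 tested members and the alternatives that kept the fold threshold, 98 values kept direction and side of the threshold, 11 passed it, 3 no longer did and 11 changed sign. Among the partners, the calls lost with 1 animal left out were TEX15 without TES6 (−0.92) and ZFP57 without TES6 (0.97) or Yak9 (0.94). No paired analysis was made, because each library came from a different animal and no pairing between the 2 groups is given. Counting error limits TET1, TET2 and DNMT3L in yak, with 7 to 26, 8 to 13 and 0 to 3 fragments per library.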

Other observations

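The deposited annotation attached the term DNA methylation involved in gamete generation to 18 genes, a set examined after its values were seen, so the counts are a description. DNMT3A and DNMT3L belong to it. Of the 16 genes tested, 6 were called lower and 2 higher in cattle-yak, with a median log2FC of −0.25, where 20.8% and 33.4% of all tested genes were called lower and higher. The genes called lower were TDRD5 (−2.65), FKBP6 (−1.91), MAEL (−1.54), TDRD9 (−1.44), TDRD1 (−1.36) and PLD6 (−1.25), which act in the piRNA pathway or its germ granules. MAEL averaged 66.7 ± 6.93 FPKM in cattle-yak against 195.9 ± 3.52 FPKM in the yak animals (SD, n = 3). The genes called higher were KDM1B (1.95), a histone demethylase needed for maternal imprints in oocytes, and CTCFL (1.23), the testis paralog of CTCF. ASZ1 and MOV10L1, of the same piRNA pathway, had 0.23 and −0.13 and were not called. With median-of-ratios scaling 6 genes were lower and 1 higher, and after centring on the Sertoli markers 14 were lower and 0 higher.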
